A study of Drosophila melanogaster with 18 samples.

Results

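Whole flies expressing the mutant transcription factor dec2P384R were compared with whole flies expressing its normal form, dec2WT, by Nanopore direct cDNA sequencing. The comparison rests on 3 libraries per genotype, 6 of the 18 libraries of the series, and takes in every gene of the Nanopore table. That table lists 13969 genes, of which 11393 had enough counts to be tested. The dec2P384R flies were GR23E10-gal4;UAS-dec2P384R and the dec2WT flies GR23E10-gal4;UAS-dec2WT, so both carry the driver as well as a transgene. A driver control, GR23E10-gal4;+, was sequenced alongside in 3 more libraries. All flies were held at 25 °C with 12 h of light and 12 h of dark, collected 3 h after the lights came on (zeitgeber time 3) and extracted in lots of about 70. The labels describe the replicates as independent biological samples and give no sex, age or batch.

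Dec2 is a basic helix-loop-helix protein that represses transcription by binding E-box sites in DNA, and in mammals it takes part in the circadian clock. Its P384R form is known from people who sleep less than most without apparent harm. In flies the Gal4 protein, made only where the GR23E10 enhancer is active, switches on whichever transgene stands behind UAS sites. GR23E10 is widely used to reach sleep-promoting neurons that project to the dorsal fan-shaped body, a small part of the brain. RNA here came from whole animals, in which those neurons are a small share of the cells. In such bulk samples, fewer cells of a type and less RNA per cell cannot be told apart.

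The dec2P384R libraries held 1922380, 3566122 and 2391381 estimated counts, the dec2WT libraries 4659601, 3332335 and 3486376, and the driver control between 3602232 and 4156725. Levels of the transgenes were not analysed here, since no row of the table stands for them. The yolk protein genes Yp1 and Yp2, made by females, stood at 1.50 CPM (counts scaled to a common library size) or less in all 9 libraries. The related Yp3 stood at 6.44 to 12.4 CPM. Acp36DE and SP, made in the male accessory gland, stood at 388 CPM or more. One dec2WT library stood apart in its clock genes: tim was at 247 CPM in dec2WT replicate 1 and at 33.2 and 35.0 CPM in replicates 2 and 3. The calls and the clock genes are therefore also given without that library. The summed levels and list counts are not, and sums of gene lists take in every listed gene, tested or not. Scaling took in library size and composition, and each fold change is dec2P384R over dec2WT on the log2 scale with its standard error.

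Few genes separated the genotypes. In edgeR's quasi-likelihood test with Benjamini-Hochberg adjustment, 15 of 11393 genes passed an adjusted p of 0.05, which is 0.132% of the genes tested. Of these, 8 were higher in dec2P384R (0.0702% of genes tested) and 7 were lower (0.0614%). Higher and lower here compare the transgenic genotypes with each other, not with the driver control. Another measure was wider: 671 genes (5.89%) had all 3 dec2P384R libraries above all 3 dec2WT libraries and 626 (5.49%) had all 3 below, with an unadjusted p under 0.05 for 819 genes (7.19%). The higher genes were MtnB, CG43061, CG34026, CG32581, CG45154, CG32706, CG46277 and CG10332. The lower genes were Cyp6a2, Ser6, CG1304, Oatp58Db, CG12224, CG45489 and Ste:CG33237. DESeq2 called 41 genes, all 15 among them. Without dec2WT replicate 1, 10 genes passed, 6 higher and 4 lower, and all 10 are among the 15, with adjusted p from 0.00571 to 0.0348. The 5 calls lost without it, given with their genes below, had adjusted p from 0.0552 to 0.174. Leaving out other single libraries ended each of these 5 calls as well.

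**Figure D1:**
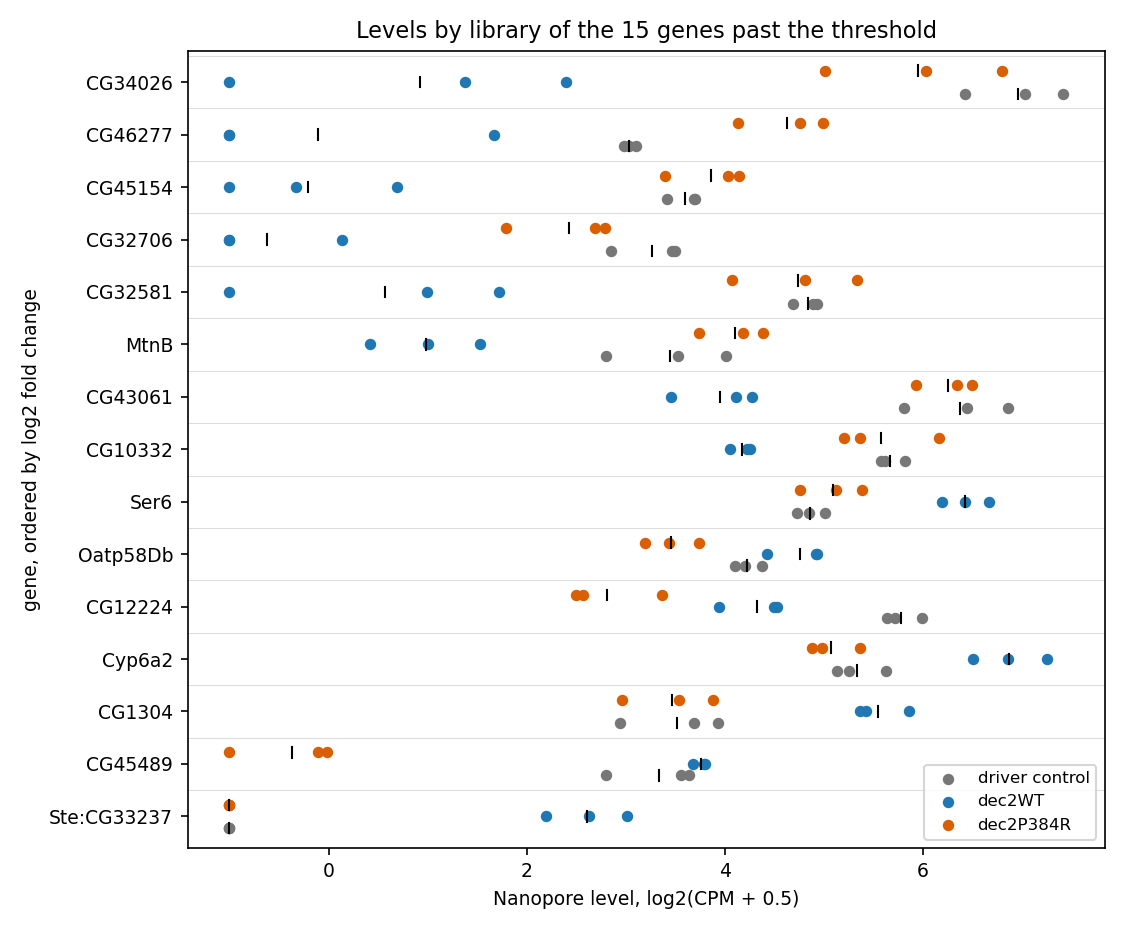
Nanopore levels of the 15 genes past the threshold, as log2(CPM + 0.5) on the horizontal axis, with 1 point per library for the driver control (grey), dec2WT (blue) and dec2P384R (orange) and a black tick at each genotype's mean. In every row the 3 orange points lie apart from the 3 blue ones, as for MtnB at 12.8 to 20.3 CPM in dec2P384R and 0.840 to 2.39 CPM in dec2WT.

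MtnB, 1 of 5 metallothionein genes, was higher in dec2P384R. Metallothioneins are small cysteine-rich proteins that bind copper, zinc and cadmium, and their genes are switched on by metal load. MtnB (FBgn0002869, chromosome 3R from 20503102 to 20503746) stood at 17.7, 20.3 and 12.8 CPM in dec2P384R, at 1.50, 2.39 and 0.840 CPM in dec2WT and at 6.46, 15.7 and 11 CPM in the driver control. Every dec2WT library lay below every library of both other genotypes. The log2 fold change was 3.43 ± 0.41 (edgeR adjusted p = 0.00384, n = 3 and 3), a 10.8-fold higher level, from 141 counts against 18. In the same fit the log2 fold change against the driver control was -2.77 ± 0.42 for dec2WT and 0.65 ± 0.31 for dec2P384R; these comparisons share libraries with the first.

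The other 4 metallothionein genes did not pass the test on Nanopore. On Illumina 2 of the 5 were called higher, MtnB and MtnD, the latter at 1.29 ± 0.22 (limma adjusted p = 0.0200). MtnD was at 50.6, 62.0 and 72.4 CPM in dec2P384R and at 24.3, 40.6 and 25.8 CPM in dec2WT, without overlap, for a log2 fold change of 1.04 ± 0.22 (edgeR adjusted p = 0.130; 0.90 without dec2WT replicate 1). MtnE, at 49.6 to 71.9 CPM against 26.8 to 57.7 CPM, overlapped between the genotypes, with a log2 fold change of 0.72 ± 0.26 (edgeR adjusted p = 0.555). MtnC and MtnA overlapped too, with log2 fold changes of 0.32 ± 0.26 and -0.18 ± 0.34. The median over the 5 genes was 0.72, beside -0.01 over all genes tested, and the family's summed level, 2669 to 4915 CPM in dec2P384R and 2227 to 5101 CPM in dec2WT, overlapped. None of 21 genes of metal transport and storage passed the test, beside 0.132% of all genes tested.

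Cyp6a2, the one called member among 75 tested cytochrome P450 genes, was lower in dec2P384R. Cytochrome P450 enzymes oxidise fats, hormones and foreign compounds, and Cyp6a2 is known for acting on insecticides. Cyp6a2 (FBgn0000473, chromosome 2R from 6779749 to 6781491) stood at 31.0, 29.0 and 40.7 CPM in dec2P384R, 116, 152 and 90.2 CPM in dec2WT, and 49.0, 34.4 and 37.6 CPM in the driver control. All 3 dec2WT libraries were above the other 6. The log2 fold change was -1.83 ± 0.22 (edgeR adjusted p = 0.00384), a 3.56-fold lower level. Cyp6a2 lies inside the span of Epac on the same strand; Epac itself had a log2 fold change of -0.20 ± 0.24. The median over the P450 genes was -0.08. All 3 dec2P384R libraries lay above dec2WT for 3 of them (4%) and below for 7 (9.33%), beside 5.89% and 5.49% of all genes tested.

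Other P450 genes with separated libraries did not pass the test. Cyp6a8 went the other way from Cyp6a2, at 61.9, 77.8 and 40.7 CPM in dec2P384R against 24.1, 29.3 and 14.8 CPM in dec2WT (log2 fold change 1.41 ± 0.29, edgeR adjusted p = 0.116; 1.46 without dec2WT replicate 1). Its control libraries, at 104, 101 and 62.9 CPM, lay above dec2WT and overlapped dec2P384R. Cyp6a20 had 50.6, 50.1 and 42.4 CPM in dec2P384R and 119, 67.2 and 63.3 CPM in dec2WT (log2 fold change -0.80 ± 0.22, edgeR adjusted p = 0.361). Among 9 tested UDP-glycosyltransferase genes, whose products attach sugars to small molecules for export, none passed, beside 0.132% of all genes. Ugt86Dd came nearest, at 31.9, 33.6 and 18.0 CPM in dec2P384R and 129.9, 66.0 and 59.1 CPM in dec2WT, without overlap (log2 fold change -1.61 ± 0.31, edgeR adjusted p = 0.0982; -1.16 without dec2WT replicate 1).

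Oatp58Db, a gene of the organic anion transporter family that carries bulky molecules across membranes, was lower in dec2P384R. Its levels (FBgn0034715, chromosome 2R from 22221180 to 22223499) were 10.3, 8.67 and 12.8 CPM in dec2P384R, 29.9, 29.9 and 21.0 CPM in dec2WT and 17.9, 20.3 and 16.7 CPM in the driver control. The 3 genotypes did not overlap, with the control in between. The log2 fold change was -1.37 ± 0.21 (edgeR adjusted p = 0.0215), and the call was lost without dec2WT replicate 1 (log2 fold change -1.28, adjusted p = 0.124). Its neighbours in the same gene cluster, Oatp58Da and Oatp58Dc, lie 275 and 182 bases away and had log2 fold changes of -0.16 ± 0.21 and -0.11 ± 0.20.

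CG12224, which the deposited annotation places in the aldo-keto reductase family, was lower in dec2P384R as well. Enzymes of this family reduce aldehydes and ketones. CG12224 (FBgn0037974, chromosome 3R from 11980704 to 11982622) had 9.83, 5.42 and 5.14 CPM in dec2P384R, 22.6, 22.1 and 14.8 CPM in dec2WT and 49.3, 51.9 and 63.1 CPM in the driver control. Here the control was the highest of the 3 genotypes, and no libraries overlapped between genotypes. The log2 fold change was -1.60 ± 0.27 (edgeR adjusted p = 0.0364), and -1.49 without dec2WT replicate 1 (adjusted p = 0.174). Its neighbour CG3397, 476 bases away, had no counts in 2 dec2P384R libraries and 0.271 CPM in the third, against 3.44, 2.39 and 2.24 CPM in dec2WT, and did not pass the test (edgeR adjusted p = 0.103). None of 32 tested glutathione S-transferase genes passed, beside 0.132% of all genes tested. The summed level of all 35 listed, at 3460 to 3793 CPM, lay above dec2WT at 3091 to 3402 CPM in all 3 libraries. GstE10, for example, had 40.8, 32.8 and 33.8 CPM against 23.6, 25.4 and 22.7 CPM (log2 fold change 0.57 ± 0.15, edgeR adjusted p = 0.325).

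Ser6 and CG1304, a pair of adjacent protease genes on the X chromosome, were both lower in dec2P384R than in dec2WT. Both are placed in the trypsin family by the deposited annotation, a family best known for digesting protein in the gut. Ser6 (FBgn0011834, chromosome X from 20962605 to 20963505) was at 41.3, 26.5 and 34.2 CPM in dec2P384R, 85.3, 72.6 and 101 CPM in dec2WT and 26.1, 28.3 and 31.7 CPM in the driver control. CG1304 (FBgn0031141, chromosome X from 20964527 to 20965419), 1022 bases away on the same strand, was at 14.3, 7.31 and 11.1 CPM, 40.6, 42.4 and 57.4 CPM, and 7.17, 14.8 and 12.4 CPM in the same order. For both genes the dec2WT libraries were the 3 highest of 9, and the other genotypes overlapped each other. The log2 fold changes were -1.36 ± 0.19 for Ser6 (edgeR adjusted p = 0.00765) and -2.15 ± 0.28 for CG1304 (edgeR adjusted p = 0.00498).

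The remaining digestive genes were mixed in direction. Of 30 tested digestive serine protease genes, Ser6 alone passed the test, and the median log2 fold change was 0.19. All 3 dec2P384R libraries lay above dec2WT for 6 genes (20%), beside 5.89% of all genes tested. They lay below for 2 genes (6.67%), beside 5.49% of all genes tested. All 33 listed genes summed to 16648 to 19045 CPM in dec2P384R, 11315 to 16289 CPM in dec2WT and 16814 to 20896 CPM in the driver control. Jon65Aii, a member of the Jonah group of gut proteases, was at 60.5, 48.0 and 39.0 CPM in dec2P384R and 17.8, 17.0 and 33.0 CPM in dec2WT (log2 fold change 1.12 ± 0.25, edgeR adjusted p = 0.156). The abundant alphaTry was at 2991, 2667 and 3493 CPM against 1929.9, 2619 and 1946 CPM (log2 fold change 0.49 ± 0.18, edgeR adjusted p = 0.572). The trypsin gene deltaTry lay the other way, at 13.3, 12.2 and 16.3 CPM against 19.5, 18.2 and 24.4 CPM, without overlap (log2 fold change -0.59 ± 0.18, edgeR adjusted p = 0.467). The related gammaTry overlapped, with a log2 fold change of -0.39 ± 0.25. On Illumina both were called lower, at -1.02 ± 0.15 (limma adjusted p = 0.0106) and -1.21 ± 0.20 (0.0145). The summed level of 15 midgut marker genes, 13341 to 15520 CPM in dec2P384R and 9809 to 13774 CPM in dec2WT, overlapped. None of the 14 tested was called, beside 0.132% of all genes tested. The part of this summed level in the values above was not tested.

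Gut lysozymes and peptidoglycan recognition proteins had summed levels that separated the genotypes, without a called member, beside 0.132% of all genes called. Summed levels of glutathione S-transferases, digestive serine proteases and odorant-binding proteins separated them too. The sums of all other gene lists overlapped, and no sum was tested. Lysozymes split bacterial cell walls. The 6 listed genes, 4 of them tested, summed to 1514 to 1590 CPM in dec2P384R, 1087 to 1182 CPM in dec2WT and 1105 to 1378 CPM in the driver control. LysD, which makes up most of that sum, was at 1330.4, 1375 and 1420.5 CPM in dec2P384R and at 937, 1050.4 and 1010.3 CPM in dec2WT (log2 fold change 0.46 ± 0.15, edgeR adjusted p = 0.540). LysP and LysB also had all 3 libraries above dec2WT, with log2 fold changes of 0.55 ± 0.19 and 0.42 ± 0.18, and because lysozyme genes resemble one another, values of single members are uncertain. PGRP-SC2, an enzyme that cuts peptidoglycan and dampens the immune response to gut bacteria, was at 177, 157 and 185 CPM in dec2P384R, 109.8, 108 and 105 CPM in dec2WT and 72.9, 82.4 and 74.2 CPM in the control. Its 3 genotypes did not overlap, with a log2 fold change of 0.69 ± 0.14 and an edgeR adjusted p of 0.103. The 13 listed recognition genes summed to 478 to 496 CPM in dec2P384R and 398 to 423 CPM in dec2WT. The median log2 fold change of the 12 tested was 0.18.

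**Figure D2:**
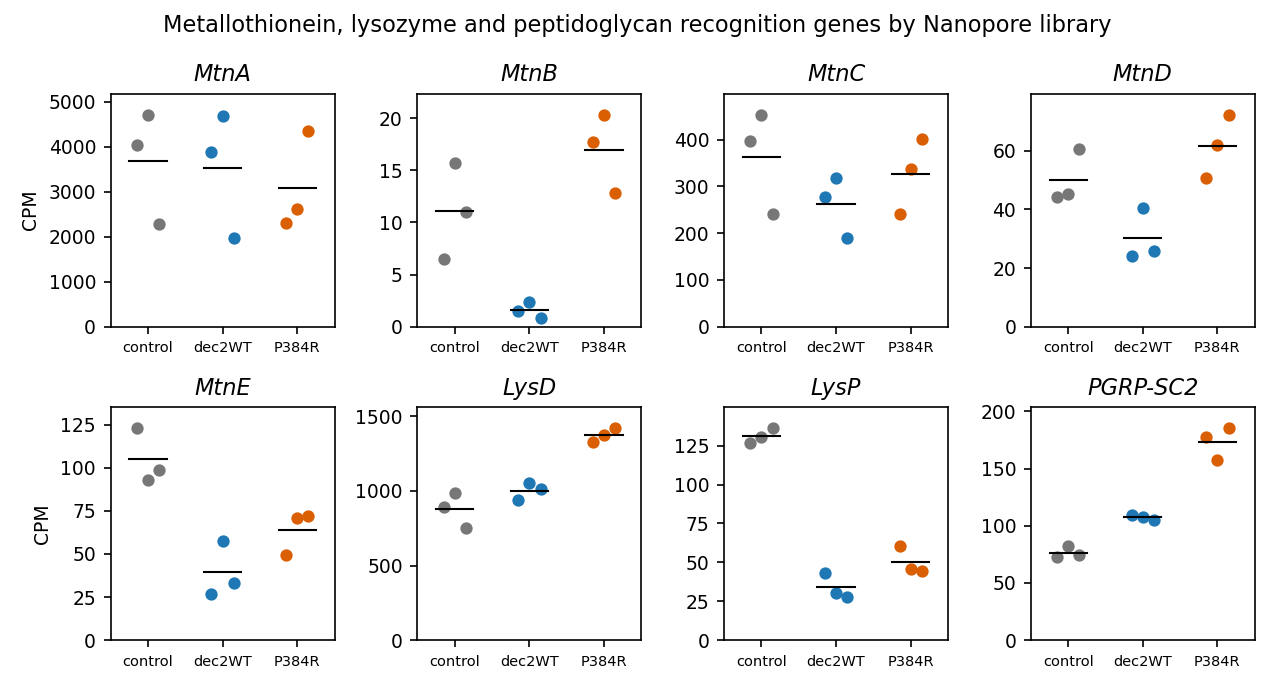
CPM in each Nanopore library (1 point per library, black lines at genotype means) for the 5 metallothionein genes, lysozyme genes LysD and LysP, and PGRP-SC2, each panel on its own axis from 0. MtnB alone passed the threshold; MtnD, LysD, LysP and PGRP-SC2 also have all 3 dec2P384R points above the dec2WT points, while MtnA, MtnC and MtnE overlap.

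None of 24 antimicrobial peptide genes passed the test, beside 0.132% of all genes tested. None had separated libraries, beside 5.89% of all genes above and 5.49% below, and replicates varied widely. DptB, an antibacterial diptericin, ranged from 34.9 to 89.9 CPM in dec2P384R and from 2.80 to 56.5 CPM in dec2WT (log2 fold change 1.40 ± 0.69, edgeR adjusted p = 0.723). CG10332 did pass, at 40.8, 36.3 and 71.1 CPM in dec2P384R, 16.1, 18.5 and 18.2 CPM in dec2WT and 55.7, 48.6 and 47.3 CPM in the driver control (log2 fold change 1.48 ± 0.23, edgeR adjusted p = 0.0236). Without dec2WT replicate 1 it was 1.42 (adjusted p = 0.173). It shares its coordinates and strand, chromosome 2R from 23600914 to 23601773, with IM18, a gene named for an immune-induced peptide. How reads are divided between both genes is therefore uncertain. IM18 was at 43.7, 54.2 and 79.6 CPM against 70.0, 52.9 and 24.6 CPM, and the sum of both genes overlapped, at 84.5, 90.5 and 151 CPM in dec2P384R and 86.1, 71.4 and 42.8 CPM in dec2WT.

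For CG34026, CG45154, CG32581, CG43061 and CG32706, all higher, the files used give no family or description, and in each the dec2WT level was near 0 or far below both other genotypes. CG34026 (FBgn0054026, chromosome X from 9533818 to 9534625) was at 64.9, 111 and 31.7 CPM in dec2P384R, 0, 2.09 and 4.76 CPM in dec2WT and 85.1, 130.0 and 169.8 CPM in the driver control, for a log2 fold change of 5.02 ± 0.65 (edgeR adjusted p = 0.00510). CG45154 (FBgn0266647, chromosome X from 21146281 to 21147041) was at 17.2, 10.0 and 15.8 CPM, 0, 0.299 and 1.12 CPM, and 12.4, 10.1 and 12.4 CPM in the same order, for 4.90 ± 0.51 (edgeR adjusted p = 0.00212). CG32581 (FBgn0052581, chromosome X from 15796908 to 15799162) had 27.5, 39.8 and 16.3 CPM, 0, 1.49 and 2.80 CPM, and 29.9, 29.2 and 25.3 CPM, for 4.40 ± 0.52 (edgeR adjusted p = 0.00384). In all 3 genes the dec2P384R and control libraries were the high ones and only dec2WT was low. With so few dec2WT counts the folds moved with single libraries. Without dec2WT replicates 1 and 3 in turn, the log2 fold change was 4.32 and 6.23 for CG34026, 4.21 and 6.43 for CG45154, and 3.69 and 5.41 for CG32581, and each call held. The CG34026 call was lost with limma voom (adjusted p = 0.101) and with DESeq2 on the 6 compared libraries alone (0.0775).

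CG43061 and CG32706 were likewise low in dec2WT. CG43061 (FBgn0262363, chromosome 3R from 8049673 to 8050059) was at 80.6, 89.4 and 60.4 CPM in dec2P384R, 18.9, 10.5 and 16.8 CPM in dec2WT and 55.5, 115 and 86.5 CPM in the driver control (log2 fold change 2.31 ± 0.29, edgeR adjusted p = 0.00384). CG32706 (FBgn0052706, chromosome X from 9087129 to 9088073) was at 2.95, 5.96 and 6.42 CPM in dec2P384R, 0, 0.598 and 0 CPM in dec2WT and 10.5, 10.8 and 6.72 CPM in the control. It rested on 43 counts in dec2P384R and 2 in dec2WT, a ratio of 30.9 with a counting interval of 8.04 to 263 (95%, exact), and its call (edgeR adjusted p = 0.0215) was lost without dec2WT replicate 1 (log2 fold change 4.01, beside 4.65 with it; adjusted p = 0.124). Without replicate 2, dec2WT is at 0 and no fold is given. CG43061 overlaps CG43060 on the same strand, and CG34026 overlaps CG32700 on the opposite strand. The next tested gene to CG43061 is mAChR-B, a muscarinic acetylcholine receptor gene, and it lay in the opposite direction at 0.983, 1.35 and 1.71 CPM against 3.87, 3.59 and 6.44 CPM (log2 fold change -1.73 ± 0.48, edgeR adjusted p = 0.361).

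Another 3 called genes lie in runs of neighbouring genes of like name or length. Whether reads were shared within these runs was not tested, so the values of single genes there are uncertain. CG45489 (FBgn0267045, chromosome X from 19928416 to 19929178) had 2 counts over the dec2P384R libraries and 151 over dec2WT, a ratio of 52.6 with a counting interval of 14.3 to 438. Its levels were 0.491, 0 and 0.428 CPM in dec2P384R, 13.3, 13.4 and 12.3 CPM in dec2WT and 6.46, 12.0 and 11.3 CPM in the driver control (edgeR adjusted p = 0.00170, the lowest of the comparison). The fitted log2 fold change was -5.51, and -4.72 without dec2P384R replicate 2. The dec2P384R libraries were thus the low ones, and dec2WT and the control were high. CG45489 is 1 of 10 neighbouring genes of like length, 600 to 646 bases, whose likeness in sequence was not checked here. CG45493 in the same run stood at 27.0, 20.3 and 22.3 CPM in dec2P384R against 8.81, 11.1 and 11.2 CPM, without overlap, and missed the threshold (edgeR adjusted p = 0.0555). Four-way in the other direction, CG45486, CG45487, CG45491 and CG45492 lay below dec2WT in every dec2P384R library without being called. CG45492, for example, had 33.4, 27.1 and 34.7 CPM in dec2P384R against 59.1, 54.1 and 71.1 CPM in dec2WT. CG45488, CG45490, CG45494 and CG43784 overlapped. Over the whole run the sum was 186, 156 and 185 CPM in dec2P384R, 234, 222 and 279 CPM in dec2WT and 149, 144 and 202 CPM in the control. The dec2P384R and dec2WT sums did not overlap, and they differed less than the levels of CG45489 did.

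A smaller difference in the sum than in the called gene was also seen in the Sdic cluster, tandem copies of a sperm dynein gene. CG46277 (FBgn0283434, chromosome X from 20212738 to 20217259) was at 26.5, 17.1 and 31.3 CPM in dec2P384R, 0, 2.69 and 0 CPM in dec2WT and 7.65, 7.38 and 8.06 CPM in the driver control (log2 fold change 4.90 ± 0.61, edgeR adjusted p = 0.00384). DESeq2 on the 6 compared libraries alone ended that call (adjusted p = 0.821). All its dec2WT counts came from replicate 2, without which no fold is given, and without dec2WT replicate 1 the log2 fold change was 4.19. The nearest copy tested, Sdic2, lies 26251 bases away. It went down, at 0, 0 and 1.71 CPM against 5.80, 10.5 and 9.52 CPM, and did not pass the test (edgeR adjusted p = 0.325). The 7 genes of the cluster summed to 52.6, 37.9 and 62.1 CPM in dec2P384R and 41.9, 40.9 and 45.6 CPM in dec2WT, which overlap.

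Ste:CG33237 is a copy of Stellate, a repeat that is normally silenced in the male germ line by RNA from the Y chromosome. It had no counts in the dec2P384R or control libraries and 19, 19 and 27 counts in dec2WT, where its level was 4.08, 5.68 and 7.56 CPM. Against a floor of 3 counts per library, dec2P384R was at least 4.85-fold lower (edgeR adjusted p = 0.0344; 0.0552 without dec2WT replicate 1). Other copies were present in every genotype. Ste:CG33236 was at 13.3, 5.96 and 15.8 CPM in dec2P384R and 24.5, 13.7 and 15.1 CPM in dec2WT, and SteXh:CG42398 at 3.44, 4.06 and 3.85 CPM against 2.58, 6.57 and 14.3 CPM, both overlapping. The sum of the 3 copies did not overlap, at 16.7, 10.0 and 19.7 CPM in dec2P384R and 31.1, 26.0 and 37.0 CPM in dec2WT, with 8.13 to 12.0 CPM in the control.

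The 15 genes were unevenly spread over the genome and over gene length. Chromosome X held 9 of them, 0.503% of its tested genes, while it holds 15.7% of all genes tested; 2R and 3R held 3 each, and 2L, 3L and 4 none. With genes split by length into 4 groups of like number, 10 were in the shortest group (152 to 1117 bases), 3 in the second, 2 in the third and none in the longest, whereas the median log2 fold change lay between -0.04 and 0.02 in each group. Only Ser6 and CG1304 were called neighbours of one another. Of 30 neighbouring genes, 17 had a fold change of the same sign as the called gene. Ser6 and CG1304 themselves were the 2 that passed the test, beside 0.132% of all genes tested. An unadjusted edgeR p under 0.05 was found for 8 of the 30, these 2 among them, beside 7.19% of all genes tested.

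**Figure D3:**
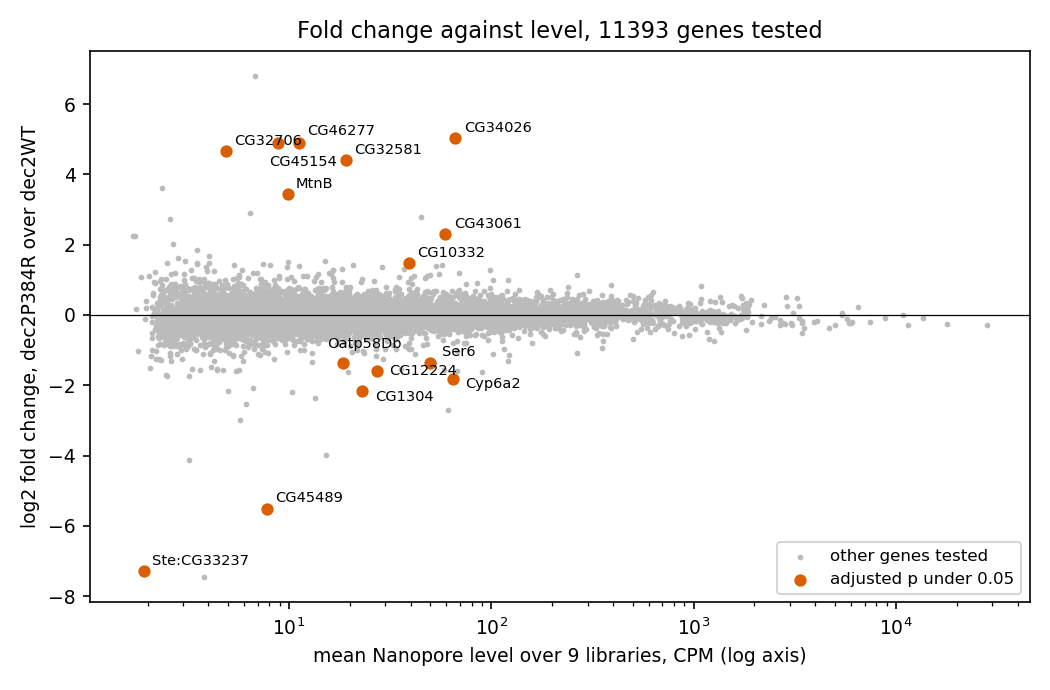
Log2 fold change of dec2P384R over dec2WT against the mean level over 9 Nanopore libraries in CPM (log axis), with 1 point per gene tested and the 15 genes past the threshold in orange. Most genes lie close to 0, around a median of -0.01, and none of the called genes has a mean level of 100 CPM or more.

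None of 8 circadian clock genes passed the test, beside 0.132% of all genes tested. In flies Clk and cyc switch on per, tim, vri, Pdp1 and cwo, whose products feed back on Clk and cyc; per, tim and vri transcripts are highest around nightfall and cry and Clk around dawn. In dec2WT replicate 1, tim was at 247 CPM, per at 23.8 CPM and vri at 199 CPM, while the other dec2WT libraries had 33.2 and 35.0, 3.59 and 4.76, and 51.7 and 47.6 CPM. The same library was low in cry, at 41.7 CPM beside 106 and 101 CPM, and in Clk, at 20.6 CPM beside 29.9 and 28.3 CPM. The dec2P384R libraries resembled the other dec2WT libraries, with tim at 34.4, 43.3 and 29.1 CPM, per at 6.39, 5.15 and 4.28 CPM and vri at 38.8, 56.6 and 52.2 CPM.

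With all libraries, tim had a log2 fold change of -1.56 ± 0.61 (edgeR adjusted p = 0.602), vri of -1.01 ± 0.45 and per of -1.10 ± 0.60. Without dec2WT replicate 1 these became 0.08 ± 0.19, -0.00 ± 0.22 and 0.32 ± 0.36, so the lower values rest on that library. The fold change of cry moved from 0.29 to -0.03, that of Clk from 0.11 to -0.05, and that of Pdp1 from -0.01 to 0.43. The cyc and cwo genes had fold changes of 0.04 ± 0.23 and -0.11 ± 0.19. On Illumina the library labelled dec2WT replicate 1 did not stand apart, with tim at 11.5 FPKM (fragments per gene length, scaled by library size) beside 11.8 and 12.1 FPKM. The part of this library's clock state in other results was not tested beyond leaving it out.

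**Figure D4:**
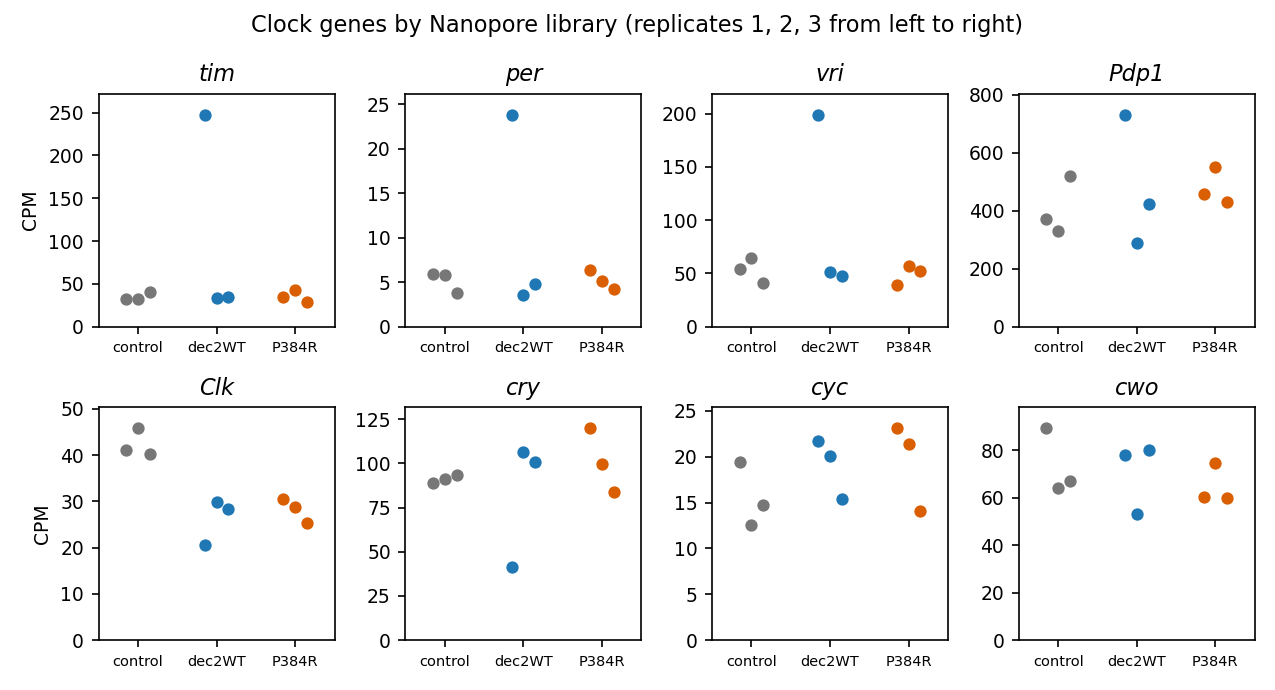
CPM of 8 clock genes in each Nanopore library, replicates 1 to 3 from left to right within a genotype, each panel on its own axis from 0. In dec2WT replicate 1, tim (247 CPM), per and vri lie far above and cry (41.7 CPM) far below the other 8 libraries. For Pdp1, dec2P384R at 429 to 551 CPM lies above dec2WT replicates 2 and 3 at 287 and 423 CPM.

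Genes of energy use, protein upkeep and growth signalling showed no called member, which at 0.132% of all genes called does not set them apart. Respiratory complex I, the first enzyme of the mitochondrial electron transport chain, had 0 of 40 genes called and a median log2 fold change of 0.13. Complexes II to V had 0 of 44 called and a median of 0.13, the tricarboxylic acid cycle 0 of 21 and 0.04, and glycolysis 0 of 18 and 0.12. Transcripts of the mitochondrial genome made up 9.10% to 11.1% of counts in dec2P384R and 10.4% to 11.5% in dec2WT, which overlap. The proteasome (0 of 48), unfolded protein response (0 of 15), autophagy (0 of 20), insulin pathway (0 of 14) and TOR pathway (0 of 15) had medians of 0.02, -0.02, -0.09, -0.09 and -0.02. Antioxidant defence genes had 0 of 17 called with a median of 0.05, and cytosolic ribosomal protein genes 0 of 93 with -0.05. Heat shock genes, whose proteins refold others, had 0 of 7 small and 0 of 15 large members called.

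Among 47 tested sleep regulators none passed the test, beside 0.132% of all genes tested, with a median of 0.01. The mAChR-B gene named above was the farthest from 0; on Illumina it was called lower (log2 fold change -1.42 ± 0.15, limma adjusted p = 0.00113). Gad1, which makes the inhibitory transmitter GABA, was at 47.7, 39.3 and 53.1 CPM in dec2P384R and 74.7, 57.4 and 63.6 CPM in dec2WT, without overlap (log2 fold change -0.49 ± 0.16, edgeR adjusted p = 0.498). It was the lowest of 17 neuron markers tested, whose median was 0.29 on Nanopore and -0.15 on Illumina. Of these 17, 2 (11.8%) had all 3 dec2P384R libraries above dec2WT and 2 (11.8%) below, beside 5.89% and 5.49% of all genes tested. Odorant-binding protein genes had 0 of 34 called, beside 0.132% of all genes. Of the 34, 4 (11.8%) had all 3 dec2P384R libraries below, beside 5.49% of all genes, and none above, beside 5.89%. All 52 listed genes summed to 5883 to 6125 CPM in dec2P384R and 6130 to 6968 CPM in dec2WT, without overlap.

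Markers of tissues had no called member either, which at 0.132% of all genes called does not set them apart. None of the markers tested for testis (35), accessory gland (63), ovary and egg shell (9), eye (29), flight muscle (19), fat body (8), midgut (14), neuron (17) or cuticle (27) passed, and the summed level of each list overlapped between dec2P384R and dec2WT. Accessory gland markers summed to 25186 to 29130 CPM against 27199 to 35419 CPM, with 7 genes (11.1%) below in all 3 dec2P384R libraries, beside 5.49% of all genes, and none above, beside 5.89%. Their median log2 fold change was -0.19 on Nanopore, while over those also tested on Illumina it was 0.21 there, the opposite direction. Testis markers summed to 9091 to 10894 CPM against 8829 to 10341 CPM. The egg shell gene Cp7Fb, at 3.93, 1.90 and 5.57 CPM against 0.430, 0 and 0.280 CPM, had a log2 fold change of 3.62 ± 0.69 and missed the threshold (edgeR adjusted p = 0.0875). It was the highest of the 9 ovary and egg shell markers tested, whose median was 0.05. All those listed summed to 697 to 969 CPM in dec2P384R and 808 to 1300 CPM in dec2WT.

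Illumina libraries of the same genotypes were set beside these values; whether they came from the same RNA is not given in the labels, and the difference between platforms was not tested. On Illumina, limma called 105 of 13418 genes (0.783%), 67 higher (0.499%) and 38 lower (0.283%). Of the 15 Nanopore genes, 13 were tested on Illumina, 12 had the same direction, and 11 passed there too. Those 11 are 11 of the 15 Nanopore calls and 11 of the 105 Illumina calls. MtnB had 24.3, 25.5 and 46 FPKM in dec2P384R and 1.34, 1.24 and 1.12 FPKM in dec2WT, a log2 fold change of 4.16 ± 0.25 on the log2(FPKM + 0.5) scale (limma adjusted p = 4.16e-05), beside 3.43 on Nanopore. Cyp6a2 had -2.04 ± 0.13 beside -1.83, Ser6 -1.48 ± 0.16 beside -1.36, CG1304 -1.94 ± 0.22 beside -2.15, and CG12224 -1.85 ± 0.21 beside -1.60.

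CG45489 went the other way on Illumina, at 4.19, 1.51 and 1.85 FPKM in dec2P384R and 0.257, 0.849 and 1.15 FPKM in dec2WT (limma adjusted p = 0.222). CG46277 had the same direction without passing, at 1.72, 1.22 and 1.23 FPKM against 0.883, 0.838 and 0.654 FPKM (limma adjusted p = 0.599). Both lie in the runs of neighbouring genes described above. CG10332 and Ste:CG33237 are listed at 0 FPKM in all 9 Illumina libraries.

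Read from the other side, 66 of the 105 Illumina genes were tested on Nanopore, and 61 of them (92.4%) had the same direction, beside 54.4% of the 10800 genes tested on both platforms. The median size of the log2 fold change over the 66 was 1.05 on each platform. Some genes named above missed the Nanopore threshold but are among the 66, with the same direction. They include MtnD (Illumina log2 fold change 1.29 ± 0.22), Cyp6a8 (1.20 ± 0.18), Ugt86Dd (-1.56 ± 0.22), CG3397 (-2.38 ± 0.22), CG45493 (1.38 ± 0.23) and Cp7Fb (1.15 ± 0.20). Their limma adjusted p lay between 0.000613 and 0.0254. All 3 libraries were apart in the same direction for 46 of the 66, beside 5.89% of all genes tested above and 5.49% below. An unadjusted edgeR p under 0.05 on Nanopore was found for 50, beside 7.19% of all genes tested. The 5 that went the other way were IM1, Obp56h, CG11131, Adh and Try29F. IM1, which encodes an immune-induced peptide, was at 250.1, 226 and 184 FPKM against 73.4, 85.1 and 53.2 FPKM on Illumina (log2 fold change 1.65 ± 0.17, limma adjusted p = 0.00113), and at 160.2, 136 and 457 CPM against 199.5, 577 and 198 CPM on Nanopore (-0.37 ± 0.49, edgeR adjusted p = 0.929), where the libraries overlapped widely.

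**Figure D5:**
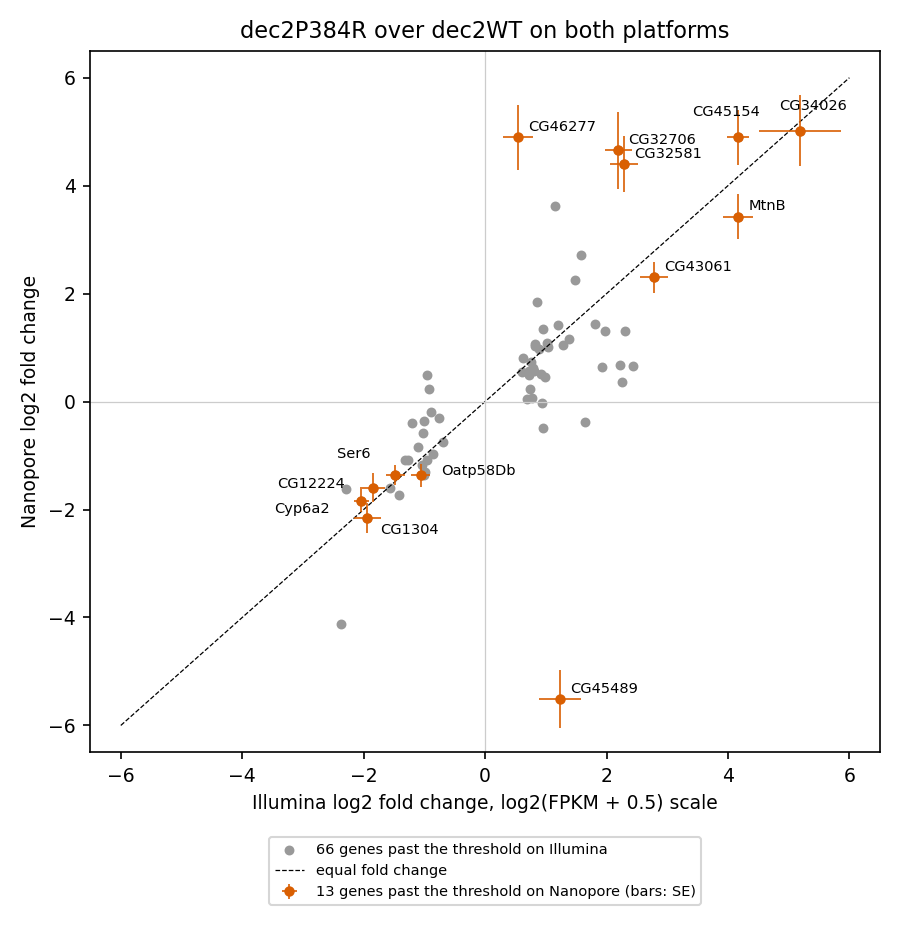
Log2 fold change of dec2P384R over dec2WT on Nanopore (vertical) against Illumina, log2(FPKM + 0.5) scale (horizontal), for the 13 Nanopore calls tested on both (orange, bars are standard errors) and the 66 Illumina calls tested on both (grey), with a dashed line at equal fold changes. Points chosen for passing a threshold lie mostly in the corners of same direction; CG45489 at -5.51 and 1.24 is the orange point of opposite direction.

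The authors' deposited table of this Nanopore comparison lists 35 of 12498 genes (0.28%) with an adjusted p under 0.05, 16 higher and 19 lower. It shares 13 genes with the 15 here, and lacks CG46277 and CG34026. In the authors' deposited table MtnD (log2 fold change 1.03, adjusted p = 0.0401), Cyp6a8 (1.40, 0.00259), Ugt86Dd (-1.62, 0.000641) and hydra (-0.97, 0.0358) also pass. The splicing regulator mbl is another (1.12, 0.00114 in the authors' deposited table), although its Illumina libraries overlapped at 3.56 to 5.49 FPKM against 5.14 to 5.30 FPKM. Between the authors' deposited tables for both platforms, 19 genes are shared, 11 higher and 8 lower on each.

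Standard errors were wider at low levels. The median standard error of the log2 fold change was 0.40 for the 1179 genes under 5 CPM, 0.25 from 5 to 20 CPM and 0.18 above. Calls numbered 2 under 5 CPM, 6 among 4164 genes from 5 to 20 CPM, 7 among 4525 from 20 to 100 CPM and none among 1525 above. The smallest changes among the calls, 1.36 and 1.37 on the log2 scale in size, came from genes above 10 CPM. The edgeR p-values rest on the spread between 3 libraries per genotype, estimated over all 9 Nanopore libraries, the driver control included. Intervals and floors cover counting error only.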

How the data were processed

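Nanopore libraries were made from 200 ng of mRNA as direct cDNA. The authors deposited them as estimated counts per gene, of which 55.1% were not whole; these were rounded. For Illumina the authors deposited FPKM values, per the file headers and values, under a name that speaks of counts. The authors' deposited comparison tables gave log2 fold changes and adjusted p-values; 54 further per-library columns were not used. Tools named in the submitters' processing notes, with no role given, are minimap2, Salmon, HISAT2, DESeq2 and featureCounts 1.5.0-p3; build and strand are not given in the sources used here. Positions are those deposited with the Illumina values, identical to the reference annotation for 99.3% of 17626 shared identifiers. Symbols came from the Illumina table for 13874 genes and from the reference for 95. One Illumina column with exchanged digits in its name was matched to dec2P384R replicate 2.

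Nanopore counts of all 9 libraries were fitted with edgeR 4.0.16 (R 4.3.3; TMM, filterByExpr, quasi-likelihood F-test, genotype alone), two-sided; Benjamini-Hochberg values were taken over every gene tested and called under 0.05. Standard errors were derived from F. Illumina values were tested with limma 3.58.1 (trended) on log2(FPKM + 0.5), over genes with at least 0.5 FPKM in 3 libraries, which understates changes of low genes. The scripts were tested on simulated data. Alternatives included DESeq2 1.42.0, limma voom, other filters and scalings, thinning, a replicate block and leaving out each library.

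The genes and lists were chosen with earlier results of these data known. Named were the 15 called genes, the 8 clock and 5 metallothionein genes, and genes named earlier for the same contrast on Illumina. GstE10, PGRP-SC2, Jon65Aii, alphaTry, Cp7Fb, CG3397, Cyp6a20, DptB, Gad1, the lysozymes, the copies and neighbours of called genes, and the genes quoted from the authors' table were chosen after their values were seen. LysRS, a tRNA synthetase gene caught by the lysozyme name pattern, was taken out of that list.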

Additional observations from a re-analysis of the deposited data

Results flagged for a closer look

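CG45489 and Sdic2 had all 3 dec2P384R libraries on one side of dec2WT on Nanopore and on the opposite side on Illumina. CG45489 had a Nanopore log2 fold change of -5.51 and an Illumina one of 1.24. Sdic2 had -3.98 on Nanopore (0, 0 and 1.71 CPM against 5.80, 10.5 and 9.52 CPM) and 1.19 on Illumina (5.22, 0.961 and 1.17 FPKM against 0.744, 0.668 and 0.303 FPKM). The difference between platforms was not tested. Both genes lie in runs of neighbouring genes, and whether reads were shared within those runs was not tested.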

How the results depend on the processing

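The count of genes past the threshold was 15, with 8 higher and 7 lower. DESeq2 gave 41 (26 and 15), and DESeq2 on the 6 compared libraries alone, added after seeing the data, gave 34 (16 and 18). The 6 compared libraries alone gave 11 in edgeR, and the other settings on all libraries gave 12 to 18. Leaving out each library in turn gave 10 to 17 calls, 6 to 10 higher and 4 to 7 lower. CG45489, CG45154, CG32581, MtnB, Cyp6a2, CG46277, CG43061, CG1304, CG34026 and Ser6 passed in all 9 of these, CG32706, Oatp58Db and CG10332 in 5, and Ste:CG33237 and CG12224 in 3. With a replicate block 12 genes passed (8 higher, 4 lower), 10 of them among the 15; the 5 lost, CG32706, Oatp58Db, CG10332, Ste:CG33237 and CG12224, had adjusted p from 0.0691 to 0.129. On the 6 compared libraries alone edgeR lost CG32706, Oatp58Db, CG10332 and CG12224 (0.0648 to 0.106). The labels link same-numbered libraries by number alone. Their deviations from the genotype means correlated at 0.17, 0.02 and -0.13, and those of differently numbered libraries at -0.20 to 0.15. Such correlations cannot show whether libraries shared a preparation, which was not tested. On Illumina, 105 calls became 56 to 90 when a library was left out, with 69, 56 and 57 without dec2WT replicates 1, 2 and 3 and 65 without dec2P384R replicate 2. No clock gene passed under any setting run.

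On Nanopore, direction reversed for 8 genes that passed in no Nanopore setting. With a library left out the Nanopore log2 fold change ranged from -1.98 to 0.0768 for tim, -1.49 to 0.32 for per, -0.0338 to 0.52 for cry, -0.0468 to 0.21 for Clk, -0.27 to 0.43 for Pdp1, -0.0978 to 0.21 for cyc, -1.14 to 0.34 for IM1 and -0.52 to 0.0829 for MtnA. Pdp1 also turned to 0.10 with limma voom, 0.0744 with the replicate block and 0.00561 with libraries thinned to equal depth. The cause was not tested. Among 44 genes followed over 18 Nanopore settings, 708 values kept direction and call, 40 lost a call, 20 gained one and 15 reversed.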

Other observations

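MtnC stood far apart between platforms in the driver control: 397, 454 and 240.5 CPM on Nanopore, within the range of both transgenic genotypes or near it, but 3.99, 2.31 and 2.67 FPKM on Illumina, where dec2WT had 207, 179 and 91.6 FPKM. CG9666 had no counts in 5 of the 6 compared Nanopore libraries, 13.3 CPM in dec2P384R replicate 3 and 13.2 to 18.0 CPM in the driver control.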
